A study of Mus musculus with 12 samples.

Results

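The miR-29 family was examined in small RNA from extracellular vesicles of mouse plasma, the membrane-bound particles that cells shed into blood. Its members were chosen by name, as the 5 rows of the deposited count table called mmu-miR-29a-3p, mmu-miR-29a-5p, mmu-miR-29b-3p, mmu-miR-29c-3p and mmu-miR-29c-5p (the prefix, for mouse, is left out below). All 5 were found among 1915 mouse microRNA names. Each of 2 groups had 6 libraries from male C57BL/6J mice at day 8 after surgery, with no allele, transgene or drug named. BDL mice had the bile duct ligated, which blocks bile outflow and leads to a biliary form of liver fibrosis. Sham mice were the operated controls. The tissue label says liver, whereas the site label and the protocol describe vesicles precipitated from 250 µL of plasma. The labels do not say that each library is a separate animal. Every first digit of the sample codes stands on 2 libraries of a group, so p-values measure the spread between libraries, which may be partly technical.

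miR-29 is a family of microRNAs, short RNAs that guide Argonaute proteins to messenger RNAs and lower their output. Target choice rests mainly on the seed, bases 2 to 8 from the 5′ end. Family targets include the messenger RNAs of fibrillar collagens, elastin and fibrillin, and in liver fibrosis the family is known as a brake on matrix production by hepatic stellate cells. The 3p strands are the usual guides, and the 5p strands, from the other side of each hairpin, are usually the discarded passengers.

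The 3 guide strands are shown first because they share a seed and differ at few other bases, so the counts rest on those bases. Sequences are from RefSeq on GRCm38.p6, run 5′ to 3′, and have the seed in capitals.
miR-29a-3p: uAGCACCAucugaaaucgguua
miR-29c-3p: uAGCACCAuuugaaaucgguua
miR-29b-3p: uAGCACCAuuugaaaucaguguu
Counting from 1 at the 5′ end, miR-29a-3p and miR-29c-3p differ by C10U alone, with 21 of 22 bases identical. miR-29a-3p and miR-29b-3p differ by C10U, G18A, U21G and A22U over the shared 22 bases. Among 1679 mature mouse names in the RefSeq table, the seed AGCACCA stood in these 3 and in no other.

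The 2 passenger strands among the 5 members have other seeds, again in capitals, and are shown because their counts are compared with those of the guides.
miR-29a-5p: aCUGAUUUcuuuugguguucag
miR-29c-5p: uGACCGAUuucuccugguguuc
Neither of these 2 seeds was shared with another mouse name in that table.

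The family comes from 2 pairs of hairpins. On GRCm38, Mir29a (chromosome 6, 31062660 to 31062747, minus strand) lies 275 bases from Mir29b-1 (chromosome 6, 31063023 to 31063093, minus strand). Mir29a overlapped no other gene in GENCODE M21, and the edge of Mir29b-1 touched an exon of the lincRNA Gm27019. Mir29b-2 (chromosome 1, 195037040 to 195037120, plus strand) lies upstream of Mir29c (chromosome 1, 195037547 to 195037634, plus strand). Both lie in an exon of the noncoding host A330023F24Rik and opposite an untranslated part of an exon of Cd46, a complement regulator. Both miR-29b hairpins give the same miR-29b-3p, so its counts cannot be assigned to either locus. The build the authors used is not given in the sources used here.

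Library totals ran from 121003 to 3506914 counts, and a count of 0 in the shallowest library (BDL 4) allows up to 23.98 CPM (counts per 1e6 of a library size scaled by edgeR's TMM method). Of the names used as cell markers, the hepatocyte list (4 of 5 in the file) took 7.17 to 33.9% of counts in BDL and 0.432 to 2.51% in sham, with miR-885-5p not in the file and miR-122-3p at 0 in sham. The red cell list (7 of 7) took 33.9 to 72.1% in BDL and 73.8 to 81.6% in sham. Leukocyte names (6 of 6) took 0.0926 to 0.562% and 0.353 to 0.772%, and stellate cell and fibroblast names (6 of 6) 0.103 to 0.321% and 0.204 to 0.372%. Platelet and endothelial names (3 of 4, miR-197-3p not in the file) took 0.0645 to 0.372% and 0.296 to 0.886%, and striated muscle names (6 of 6) 0.0661 to 0.167% and 0.115 to 0.226%. The part of these shifts in any miR-29 value was not tested. All of these are shares of a library's counts, so they do not give the amount from any source. The red cell names miR-486a-5p and miR-486b-5p had identical values, with means of 278640 CPM in BDL and 392088 CPM in sham for each. The same reads thus appear to be counted under both names. Library totals include this repeat, which raises the red cell shares and lowers all other shares. Fewer vesicles from a source and less microRNA per vesicle cannot be told apart in these libraries.

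In both groups the family was almost wholly miR-29a-3p, a guide strand. The 5 names together took 0.0929 ± 0.0814% of a library's counts in BDL (0.0248 to 0.246%) and 0.0600 ± 0.0204% in sham (0.0315 to 0.0821%; SD, n = 6 each), which overlapped. The difference of the means was 0.0329 percentage points, and 0.00222 without BDL 1. It was 0.0543 with miR-486a-5p, miR-486b-5p and miR-122-5p left out of the totals. Over the 12 libraries miR-29a-3p had 19743 of the family's 20091 counts, or 98.3%. Its share of the family ran from 96.2 to 100% in BDL and from 96.2 to 99.1% in sham. The share of 100% is BDL 4, with 30 family counts in all, for which the Wilson 95% interval begins at 88.6% (counting error only). By mean CPM, miR-29a-3p ranked 53 of 1915 names in BDL and 60 in sham. The next member, miR-29b-3p, ranked 386 and 301. Small RNA ligation and PCR favour some sequences over others, so levels of different strands are compared here only as read counts.

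miR-29a-3p did not differ between BDL and sham beyond the spread of the libraries. BDL 1 had 1773 CPM, BDL 2 596.6, BDL 3 951.8, BDL 4 239.8, BDL 5 813.0 and BDL 6 466.2. Sham 1 had 680.2 CPM, sham 2 783.6, sham 3 627.2, sham 4 496.2, sham 5 645.0 and sham 6 304.8. The 2 groups overlapped, with 3 BDL libraries above every sham library and 1 below. The means were 806.7 ± 535.9 CPM in BDL and 589.5 ± 167.4 CPM in sham (SD, n = 6 each). The log2 fold change, BDL minus sham, was 0.46 ± 0.38 (SE; approximate 95% interval -0.34 to 1.26; edgeR quasi-likelihood test, adjusted p = 0.361). That interval holds changes from a modest fall to a more than doubled level, so the data do not show that the level was the same. Without BDL 1 the value was 0.01 (edgeR adjusted p = 0.976).

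**Figure D1:**
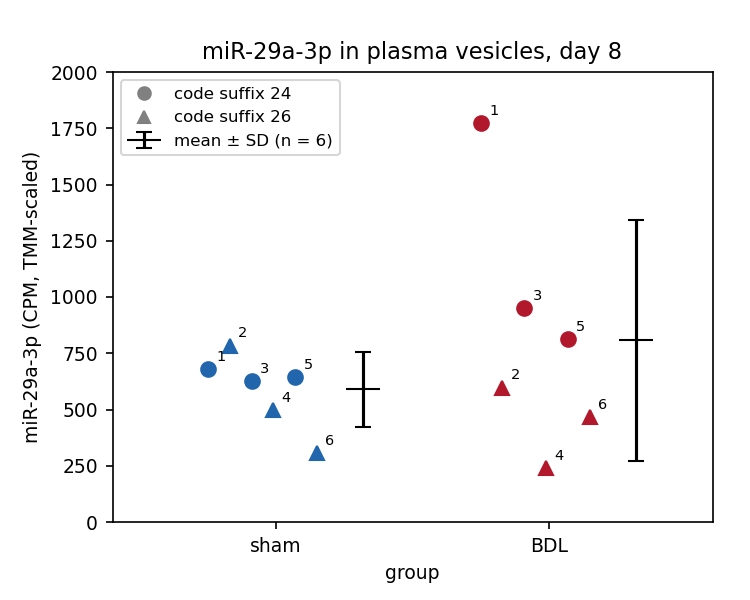
miR-29a-3p in CPM (vertical axis, from 0) for each of the 6 sham and 6 BDL libraries, numbered, with the mean and SD of each group as bars and the last 2 digits of the sample code as marker shape. BDL libraries run from 239.8 to 1773 CPM and sham libraries from 304.8 to 783.6 CPM, and the 3 BDL libraries with suffix 24 lie above all sham libraries.

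Of the 5 members, 2 passed the low-count filter, miR-29a-3p and miR-29b-3p, and 0 of these 2 passed an adjusted p of 0.05, where 42.8% of the 341 names tested did (24.6% higher in BDL and 18.2% lower). Neither had groups that did not overlap, where 21.1% of the names did. Neither had an unadjusted p under 0.05 by edgeR, DESeq2 or limma-voom. The spread of miR-29a-3p was wide for its level. Its coefficient of variation was 66.4% in BDL and 28.4% in sham, against medians of 45.7% and 22.1% over 37 other names whose mean lay within 2-fold of its own.

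The sample codes end in 24 or 26, a suffix whose meaning is not given, and miR-29a-3p was compared within each. Among suffix 24 libraries the BDL values of 1773, 951.8 and 813.0 CPM all lay above the sham values of 680.2, 627.2 and 645.0 CPM. The log2 fold change there was 0.88 ± 0.30 (edgeR adjusted p = 0.0423, where 31.3% of 403 names passed, 18.4% with higher levels in BDL). Among suffix 26 libraries the BDL values of 596.6, 239.8 and 466.2 CPM overlapped the sham values of 783.6, 496.2 and 304.8 CPM, and the log2 fold change was -0.34 ± 0.44 (edgeR adjusted p = 0.558, where 38.5% of 265 names passed, 20.4% with higher levels in BDL). The difference between the suffixes was -1.12 ± 0.56 and did not pass the test (interaction term, edgeR adjusted p = 0.272, with 2.35% of names past it). Suffix and depth were joined in BDL. Totals were 1635616 to 3506914 counts in BDL suffix 24 and 121003 to 666310 in BDL suffix 26, against 1380297 to 2684636 and 659302 to 2388515 in sham.

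The level of miR-29a-3p rose with the library total over the 12 libraries. In BDL the 3 libraries of at least 1635616 counts had 813.0 to 1773 CPM, and the 3 shallower ones had 239.8 to 596.6 CPM. In sham the shallowest library, number 6, had the lowest value, and the deepest ones, numbers 1 and 2, the highest. With the log2 total and the group as terms of an edgeR fit, chosen after this relation had been seen, miR-29a-3p rose by 0.57 ± 0.08 on the log2 scale per doubling of the total (adjusted p = 0.000461). This was the smallest p among the 341 names, of which 27.0% passed the test, 16.1% with a rise. Leaving out each library in turn gave slopes of 0.51 to 0.64, all past the threshold. Within the BDL libraries alone the slope was 0.51 ± 0.10 (edgeR adjusted p = 0.00684, with 9.30% of 215 names rising). Within the sham libraries alone it was 0.64 ± 0.16 (unadjusted p = 0.00217, edgeR adjusted p = 0.0736, where 0% of 270 names passed with a rise). When every library was thinned to 121003 counts, and set against its original total, the slope was 0.49 ± 0.08 (edgeR adjusted p = 0.000599). Random thinning keeps the expected share of each name, so this slope is not separate support for the relation.

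Beside sham libraries of like depth, BDL 2, 3, 5 and 6 had the higher miR-29a-3p levels. BDL 1 (3506914 counts) and BDL 4 (121003) had no sham library of like depth, with sham totals of 659302 to 2684636. BDL 6 had 466.2 CPM at a total of 666310, and sham 6 had 304.8 CPM at 659302. BDL 2, at 623117, had 596.6 CPM beside the same sham library. BDL 3 had 951.8 CPM at 2278626, and sham 2 had 783.6 CPM at 2388515. BDL 5 had 813.0 CPM at 1635616, and sham 5 had 645.0 CPM at 1957974. In the same fit, with the total as a term, the log2 fold change was 0.68 ± 0.18 (edgeR adjusted p = 0.00537). Of the 341 names, 45.5% passed in that fit, 25.5% with higher levels in BDL, and miR-29a-3p stood at place 107 of 341 by p. Without BDL 1 the value was 0.48 and no longer passed (edgeR adjusted p = 0.0773). Without both BDL 1 and BDL 4 it was 0.50 and did not pass either (edgeR adjusted p = 0.0692). The depth of a library is not part of the study's design, and depth and group are only partly separable because the 2 lowest totals and the highest total are all of BDL libraries.

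**Figure D2:**
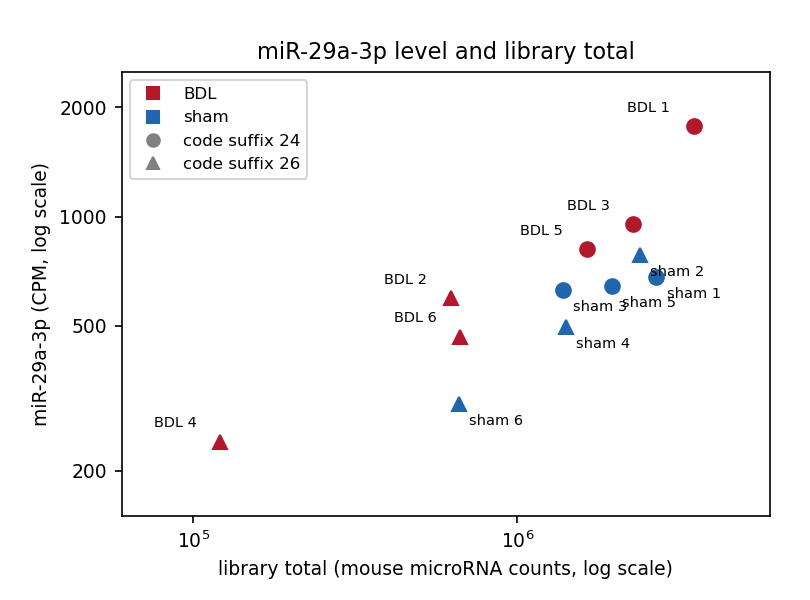
miR-29a-3p in CPM (vertical log axis) against the total mouse microRNA counts of each library (horizontal log axis), with BDL in red, sham in blue and the code suffix as marker shape. Points climb from BDL 4 (121003 counts, 239.8 CPM) to BDL 1 (3506914 counts, 1773 CPM). BDL 2, 3, 5 and 6 lie above sham points of like total, and BDL 1 and BDL 4 have no sham point of like total.

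**Figure D3:**
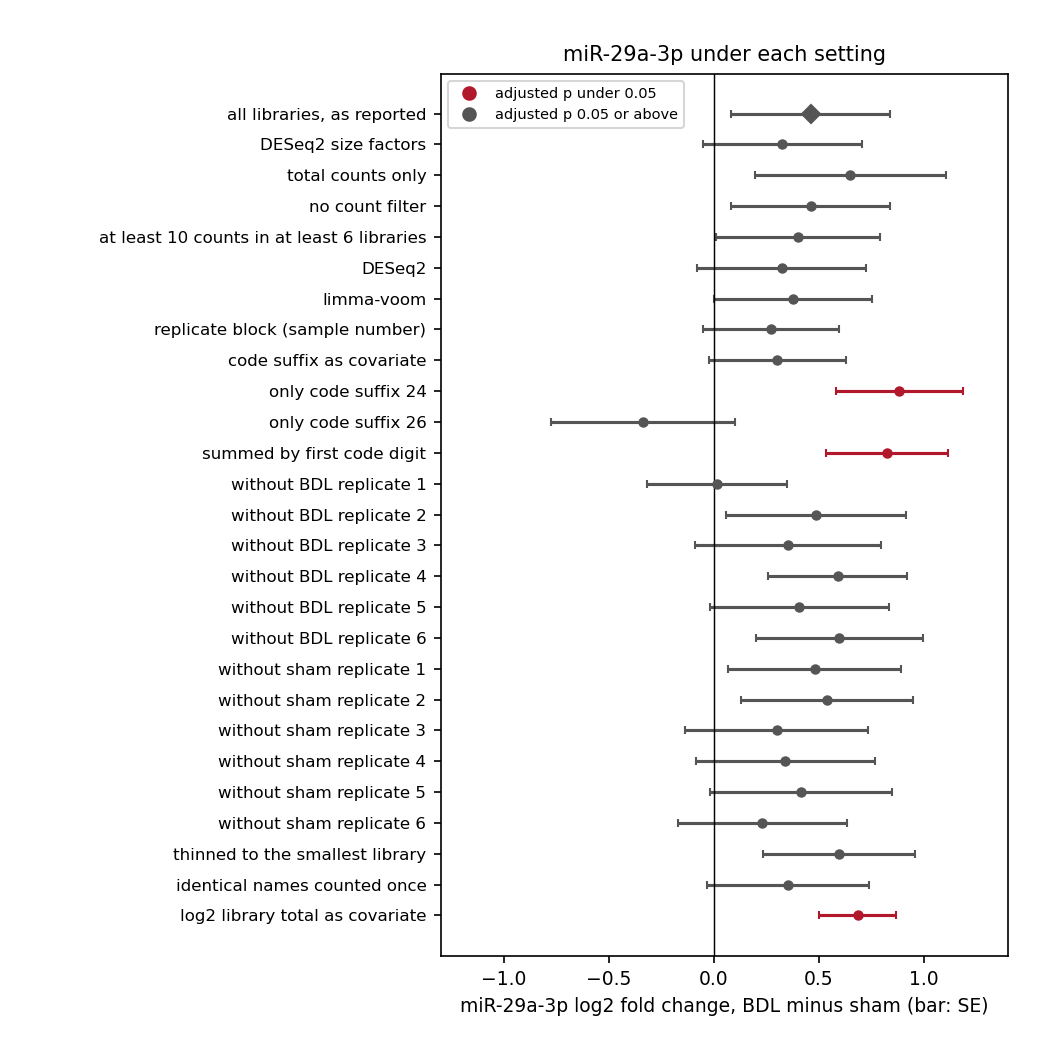
The log2 fold change of miR-29a-3p, BDL minus sham (horizontal axis), with its SE as a bar, for all libraries as reported and for each other setting (vertical axis), in red where the adjusted p was under 0.05. Suffix 24 alone (0.88), counts summed by first code digit (0.82) and the fit with the library total (0.68) passed, and suffix 26 alone (-0.34) lay on the other side of 0.

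miR-29b-3p, the guide made by both clusters, was low in every library and did not pass the test. The BDL libraries, in order from 1 to 6, had 31, 4, 5, 0, 12 and 6 counts, and the sham libraries had 25, 15, 5, 7, 42 and 7. As levels, these were 0 to 11.01 CPM in BDL (median 6.82) and 3.48 to 21.2 CPM in sham (median 7.69), and the groups overlapped. The means were 5.70 ± 4.05 CPM in BDL and 9.47 ± 6.22 CPM in sham (SD, n = 6 each). The log2 fold change was -0.65 ± 0.52 (SE; approximate 95% interval -1.74 to 0.44; edgeR adjusted p = 0.337). No relation to depth was detected, with a slope of -0.03 ± 0.28 per doubling of the total (edgeR adjusted p = 0.947).

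The 2 most counted guides had fold changes of opposite sign, and their ratio did not differ between the groups beyond the spread of the libraries. The log2 ratio of miR-29a-3p to miR-29b-3p counts (1 added to each) compares strands within a library and needs no scaling between libraries. It can still vary with depth. In BDL 4, with 30 and 0 counts, the added 1 sets the value. miR-29a-3p also rose with the library total, and no such relation was detected for miR-29b-3p. From library 1 to library 6 the ratio was 8.06, 6.06, 8.73, 4.95, 6.62 and 5.19 in BDL, and 6.24, 6.91, 7.23, 6.02, 4.90 and 4.65 in sham. The highest ratios were those of BDL 1 and BDL 3, and the other 4 BDL libraries lay within the sham range. The means were 6.600 ± 1.527 and 5.991 ± 1.043 (SD, n = 6 each), a difference of 0.61 (two-sided exact permutation p = 0.433 over 924 ways to divide the libraries). The difference was 0.32 without BDL 1, 0.18 without BDL 3, 0.94 without BDL 4, 0.39 without sham 5 and 0.34 without sham 6, and 0.21 with 5 counts added in place of 1. Each of these had a larger p than 0.05 in the same exact permutation test (0.251 to 0.827). Of 5 ratios planned, this 1 had a median of at least 5 counts for both strands in both groups and was tested, so no adjustment over ratios applies.

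miR-29c-3p, the guide that differs from miR-29a-3p by C10U alone, was near the detection limit. In the same order, 66, 0, 9, 0, 6 and 1 counts were found in BDL, and 9, 12, 0, 5, 6 and 0 in sham. BDL 1 held 66 of the 82 BDL counts, at 13.7 CPM, and the other 11 libraries had 0 to 4.88 CPM. It failed the low-count filter, and in a fit without that filter its log2 fold change was 0.85 ± 0.65 (edgeR adjusted p = 0.447, where 7.57% of 1731 names passed). Set against miR-29a-3p, its counts were 0.775% of that strand's counts in BDL 1 and 0 to 0.967% in the other libraries, and 0.633% over all BDL and 0.471% over all sham libraries. Whether some of these counts are misread miR-29a-3p was not tested. In libraries with 0 counts the limit of 3 counts is 5.39 CPM in BDL 2, 23.98 in BDL 4, 2.09 in sham 3 and 4.57 in sham 6, within or above the range of levels where the strand was counted (1.84 to 13.7 CPM).

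The 2 passengers were both rare, and they stood in different ratios to their guides. Over the 12 libraries miR-29c-5p had 51 counts against 114 for miR-29c-3p, or 44.7%, while miR-29a-5p had 24 counts against 19743 for miR-29a-3p, or 0.122%. These are read ratios with no replicate test, and both rest on few passenger reads. For miR-29a-5p the BDL counts were 6, 1, 2, 0, 0 and 2, and the sham counts were 2, 6, 1, 3, 0 and 1. No library exceeded 3.67 CPM, and the groups overlapped. It failed the filter too, and without it had a log2 fold change of -0.21 ± 0.95 (edgeR adjusted p = 0.936).

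For miR-29c-5p the BDL counts were 21, 1, 5, 0, 13 and 1, and the sham counts were 1, 2, 2, 4, 1 and 0. BDL 1, 3 and 5, the suffix 24 libraries, had 4.37, 1.87 and 8.29 CPM, above the 0.346, 1.39 and 0.504 CPM of sham 1, 3 and 5. These sham values rest on 1, 2 and 1 counts, under the limit of 3 counts used above. In sham 3 that limit is 2.09 CPM, more than the level of BDL 3. Among suffix 26 libraries BDL had 1.80, 0 and 1.84 CPM and sham 0.813, 3.84 and 0 CPM, so the groups overlapped. The means were 3.027 ± 2.930 CPM in BDL and 1.149 ± 1.399 CPM in sham (SD, n = 6 each). It failed the low-count filter. In the unfiltered fit its log2 fold change was 1.70 ± 0.81, with an unadjusted p of 0.0349 and an edgeR adjusted p of 0.186, where 7.57% of 1731 names passed.

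The passengers of the miR-29b hairpins, which are not among the 5 members, had fewer counts still. miR-29b-1-5p had 5 counts in all, 2 in BDL and 3 in sham, and miR-29b-2-5p had 9, of which 2 were in BDL and 7 in sham.

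**Figure D4:**
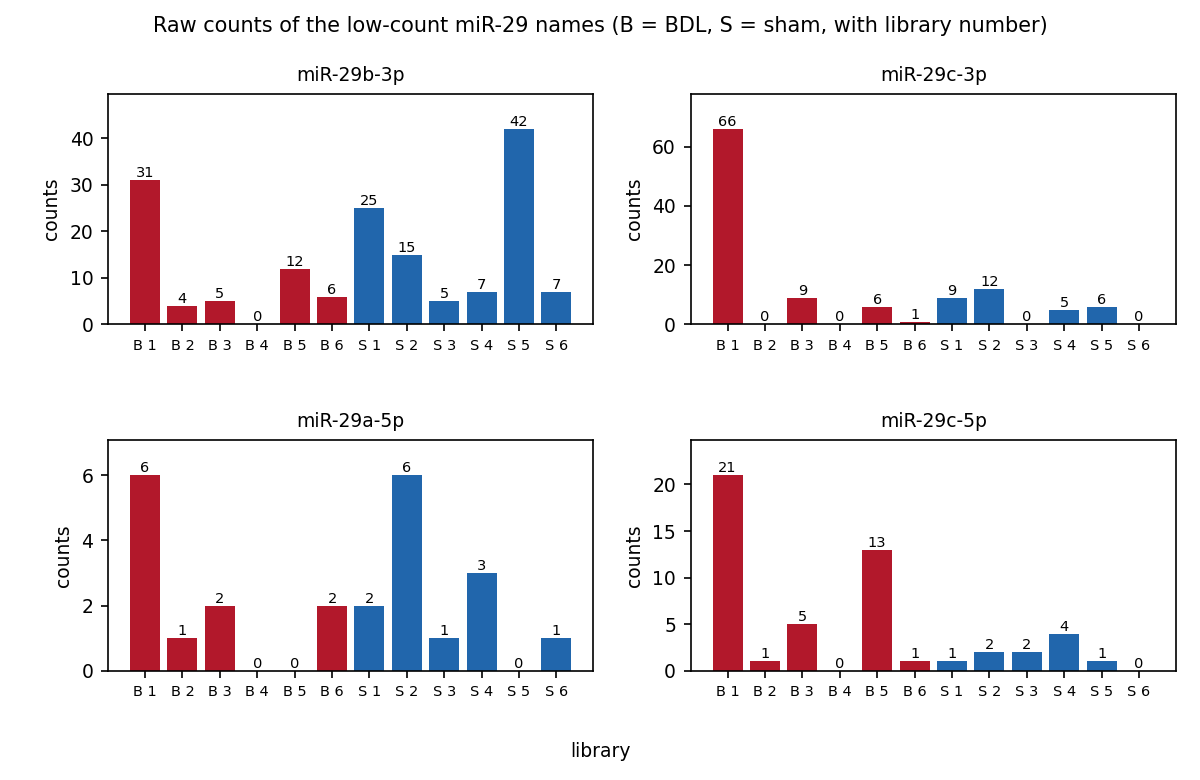
Raw counts (vertical axes, each from 0 with its own range) of miR-29b-3p, miR-29c-3p, miR-29a-5p and miR-29c-5p in the 6 BDL (B, red) and 6 sham (S, blue) libraries. BDL 1, the deepest library, holds 66 of the 114 miR-29c-3p counts, and miR-29c-5p reaches 21 in BDL 1 and 13 in BDL 5 against at most 4 in sham.

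The names whose levels ran most like miR-29a-3p over the 12 libraries were miR-27a-3p (Pearson r = 0.958 of log2 CPM), miR-425-5p (0.915) and miR-194-5p (0.912), where the median over 339 other tested names was 0.147. With the group means taken out they were miR-221-3p (0.973), miR-27a-3p (0.967) and miR-425-5p (0.949), where the median was 0.300. All of these points share their library, its scaling and its depth, and each of these 4 names also rose with the library total, by 0.46 for miR-27a-3p, 0.29 for miR-425-5p, 0.55 for miR-194-5p and 0.42 for miR-221-3p per doubling (log2; edgeR adjusted p of 0.00107, 0.00786, 0.00176 and 0.00176). miR-29b-3p was less like it, with r = 0.236 over the 12 libraries and 0.334 with the group means taken out. The names closest to miR-29b-3p over the 12 libraries were miR-708-3p (0.850), miR-5132-5p (0.830) and miR-210-3p (0.784), and with the group means taken out miR-708-3p (0.823), miR-93-3p (0.816) and miR-5132-5p (0.809). miR-29c-3p was too sparse for this measure.

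Other microRNAs with a reported role in fibrosis are given for context, from lists drawn up on reported roles with earlier results on these libraries known. Of 25 names reported to dampen fibrosis (without miR-29), 23 were tested: 3 were higher in BDL, 9 lower and 11 did not pass. The share past the threshold was 52.2%, beside 42.8% of all names. Their median log2 fold change was -0.40, where that of all 341 names was 0.03. miR-30d-5p, of a family reported to lower connective tissue growth factor, rose from 5876 ± 450.7 CPM in sham to 10736 ± 4404 CPM in BDL (log2 fold change 0.87 ± 0.26, edgeR adjusted p = 0.0118). miR-378a-3p, encoded within the metabolic coactivator gene Ppargc1b, rose by 0.83 ± 0.25 (edgeR adjusted p = 0.0130). miR-193a-5p rose by 3.21 ± 0.39 (edgeR adjusted p = 2.48e-05), with all 6 BDL libraries above all sham libraries, and miR-26a-5p fell by 1.83 ± 0.36 (edgeR adjusted p = 0.000772), with all 6 below.

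Of 19 names reported to promote fibrosis, 14 were tested: 1 was higher in BDL, 6 lower and 7 did not pass. The share past the threshold was 50.0%, beside 42.8% of all names (24.6% higher in BDL and 18.2% lower). Their median log2 fold change was -0.74, where that of all 341 names was 0.03. Of the 6 lower, miR-199a-3p and miR-199b-3p have identical counts and are 1 measurement. The number tested, the share and the median above include both names. miR-214-3p was the riser, from 43.6 ± 9.40 to 140.6 ± 42.8 CPM (log2 fold change 1.69 ± 0.29, edgeR adjusted p = 0.000337). It is among the 6 stellate cell and fibroblast names, whose median share of counts was lower in BDL (0.141%) than in sham (0.290%). That list was mixed. miR-145a-5p also rose (1.31 ± 0.41, edgeR adjusted p = 0.0167). miR-143-3p was lower (-1.13 ± 0.25, edgeR adjusted p = 0.00189), as were the identical miR-199a-3p and miR-199b-3p (-1.23 ± 0.30, edgeR adjusted p = 0.00343), both of which enter the share. miR-199a-5p did not pass (-0.89 ± 0.45, edgeR adjusted p = 0.124). miR-222-3p fell by 1.26 ± 0.31 (edgeR adjusted p = 0.00330). miR-21a-5p, abundant in many injured tissues, had 3357 ± 1348 CPM in BDL and 3360 ± 967.4 CPM in sham and a log2 fold change of 0.00 ± 0.30 (approximate 95% interval -0.63 to 0.63; edgeR adjusted p = 1.0). miR-27a-3p had 0.19 ± 0.33 (edgeR adjusted p = 0.682). With the library total, 14 of the 23 and 9 of the 14 names passed with a rise, beside 16.1% of all names, and that difference was not tested.

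**Figure D5:**
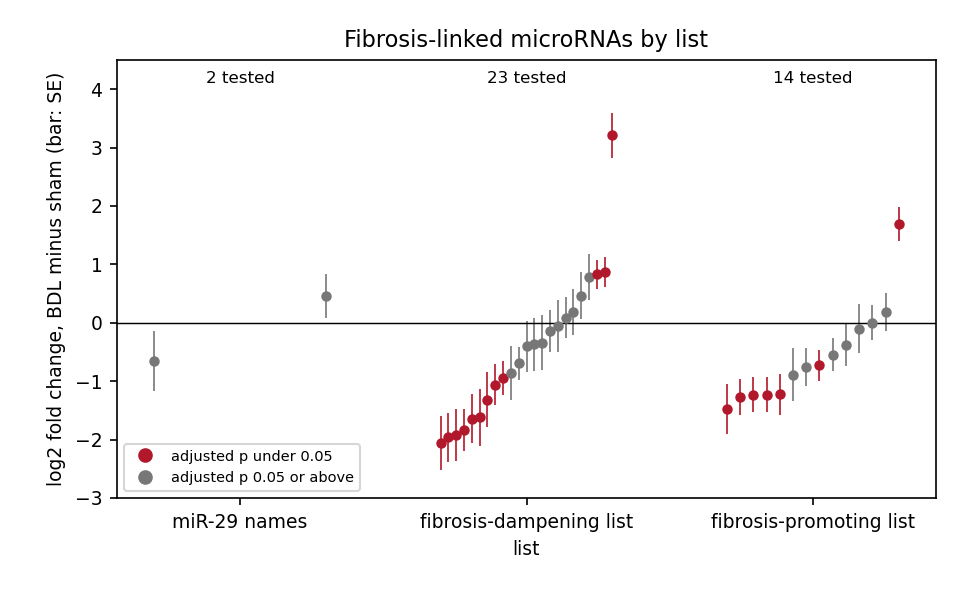
Log2 fold change, BDL minus sham (vertical axis), with its SE as a bar, for each tested name of the miR-29 family (2), the fibrosis-dampening list (23) and the fibrosis-promoting list (14), in red where the edgeR adjusted p was under 0.05. The 2 miR-29 points lie at 0.46 and -0.65 with neither past the threshold, and both lists hold more falls than rises.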

How the data were processed

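ExoQuick precipitates of plasma gave the vesicle RNA, of which 40 ng went into each NEBNext small RNA library with 15 PCR cycles, per the labels' protocols. Molecular identifiers are not mentioned, so reads are PCR copies, and Wilson intervals and limits for a count of 0 reflect counting error alone. The intervals of log2 fold changes come from the edgeR fit and carry the spread between libraries. The authors deposited raw counts for each microRNA name, as integers whose totals differ between libraries. The submitters' processing notes name cutadapt and STAR. Versions, build, annotation and the treatment of reads matching several hairpins: not given in the sources used here. Of 1982 names, 67 of other species were left out.

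Counts were tested with edgeR 4.0.16 (R 4.3.3; quasi-likelihood F test, TMM scaling, filterByExpr, no covariate) over all 341 names passing the filter, with Benjamini-Hochberg adjustment and a threshold of 0.05. SE is the log2 fold change over the square root of F. Log2 CPM has a prior count of 2. Single values were compared with exact permutation tests (scipy 1.17.1). DESeq2 1.42.0, limma-voom 3.58.1 and the other settings are given in the closing section. The members, the lists and the relation to library total were chosen with earlier results of these data known. Named for likeness were the 3 highest Pearson correlations, and from each list the 2 highest levels and 2 smallest p-values.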

Additional observations from a re-analysis of the deposited data

Results flagged for a closer look

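Of 14 groups of 6 library values examined, 2 held a library far from the other 5. Both are groups of a name with few counts and with libraries at 0, so no chance rate is set beside them. BDL 1 had 13.7 CPM of miR-29c-3p, against 0 to 3.83 CPM in the other BDL libraries. Sham 4 had 3.84 CPM of miR-29c-5p, which is 4 counts, against 0 to 1.39 CPM in the other sham libraries.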

How the results depend on the processing

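Of 26 other settings for miR-29a-3p, 22 kept the sign of its log2 fold change and its side of the threshold. miR-29a-3p passed with suffix 24 alone (0.88), with counts summed over libraries that share a first code digit (0.82, edgeR adjusted p = 0.0432), where the deeper library of a pair weighs more, and with the library total as covariate (0.68). With summed counts 176 of 438 names passed, 101 of them with higher levels in BDL. The sign of miR-29a-3p reversed with suffix 26 alone (-0.34). Leaving out 1 library gave 0.01 to 0.60. The cause was not tested. DESeq2 size factors moved the median of all names by -0.14 and total counts only by 0.09. miR-29a-3p less that median was 0.43 with TMM and with DESeq2 size factors, and 0.53 with total counts only. With repeats of identical names left out, the log2 fold change of miR-29a-3p was 0.35 (edgeR adjusted p = 0.496).

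The relation to library total and the BDL effect beside it were examined after the data were seen. The slope did not pass in sham libraries alone (0.64), and the BDL effect did not pass without BDL 1 (lowest of 0.48 to 0.74 over single libraries left out) or without both BDL 1 and BDL 4 (0.50, edgeR adjusted p = 0.0692). With the code suffix as covariate the slope was 0.55 (edgeR adjusted p = 0.00711).

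miR-29b-3p kept its sign and stayed above the threshold in all 23 settings that gave a value (-1.07 to -0.29, adjusted p 0.139 to 0.687). Its ratio to miR-29a-3p reversed in suffix 26 alone (-0.46, exact permutation p = 0.7, smallest possible 0.1 for 3 against 3). For the untested members the log2 ratio of mean CPM was -0.14 for miR-29a-5p (-1.25 thinned to 121003 counts), 0.53 for miR-29c-3p (-2.38 in suffix 26, -0.62 without BDL 1) and 1.397 for miR-29c-5p (2.73 in suffix 24, -0.43 in suffix 26). Names past the threshold fell from 146 to 65 of 133 tested when thinned, where fewer names could be tested.

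Sample numbers 1 to 6 occur in both groups. Of the 6 pairs, 2 had deviations correlated above 0.1, and 2 BDL libraries correlated best with their own number, so the numbers were not taken as pairs. With the number as a replicate block, miR-29a-3p had 0.27 (edgeR adjusted p = 0.548), its slope on library total 0.48 (edgeR adjusted p = 0.0816), and 133 names passed.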

Other observations

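The miR-29a-3p sequence is 40.9% G and C. Of the 341 tested names 290 (85.0%) had a mature sequence in the RefSeq table, and 84 others lay within 5 percentage points of this value. Of these, 9 were higher in BDL and 29 lower, with a median log2 fold change of -0.60, against 68 higher, 51 lower and 0.02 over the 290. With the library total, 19 of the 84 rose and 3 fell, with a median slope of 0.20 per doubling (log2), against 55 rising, 37 falling and 0.06 over all 341. Composition, depth and group were not separated.

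The other names with the smallest p for a rise with library total were miR-181a-5p (0.53 ± 0.08), miR-30e-5p (0.62 ± 0.10), miR-27a-3p (0.46 ± 0.08), miR-26a-5p (0.48 ± 0.09) and miR-30c-5p (0.63 ± 0.11), and the names with the smallest p for a fall were miR-1964-3p (-0.53 ± 0.08), miR-7225-3p (-0.93 ± 0.15), miR-877-3p (-0.60 ± 0.10) and miR-219a-5p (-0.89 ± 0.15). They were chosen as the 9 names after miR-29a-3p by p, after their values were seen.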
